A study of Homo sapiens with 8 samples.

Results

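The miR-17 and miR-18 seed families were examined in PC-3, a human prostate cancer cell line. The families were taken as 8 miRNAs chosen by name, 6 with the seed of miR-17-5p (hsa-miR-17-5p, hsa-miR-20a-5p, hsa-miR-20b-5p, hsa-miR-93-5p, hsa-miR-106a-5p and hsa-miR-106b-5p) and 2 with the seed of miR-18a-5p (hsa-miR-18a-5p and hsa-miR-18b-5p), written below without the prefix. The arrays gave values for 7 of the 8, out of 1887 human miRNAs, and miR-106a-5p was not analysed here. RNA was taken 24 h after DMSO (the solvent, which all groups received), 60 µM luteolin (a plant flavonoid), 60 µM gefitinib (a drug that blocks the kinase of the EGF receptor) or the co-administration of both at 60 µM each. Each group had 2 one-colour arrays, which the labels call biological replicates without saying whether they came from separate cultures, so that p-values measure the spread between these arrays. All groups are of 1 cell line in culture.

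A miRNA guides the silencing machinery to mRNAs that pair with its seed, bases 2 to 8 from its 5′ end, so miRNAs that share a seed share many targets. These families are made from 3 clusters of miRNA genes that arose by duplication. The miR-17-92 cluster is activated by the transcription factors MYC and E2F, its products restrain E2F1 and the cell cycle inhibitor p21, and it is amplified or highly expressed in many cancers. The miR-106b-25 cluster lies in an intron of the replication gene MCM7, itself a target of E2F.

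The mature sequences are shown because the members differ so little that the probes for them have to part near-identical molecules. They are given 5′ to 3′ from RefSeq (GRCh38.p14), with the seed in capitals, and all 8 members were found there.
miR-17-5p: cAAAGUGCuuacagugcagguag
miR-20a-5p: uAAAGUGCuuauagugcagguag
miR-20b-5p: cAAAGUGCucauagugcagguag
miR-106a-5p: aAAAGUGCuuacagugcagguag
miR-93-5p: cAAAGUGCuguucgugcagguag
miR-106b-5p: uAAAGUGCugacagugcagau
miR-18a-5p: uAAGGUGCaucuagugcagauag
miR-18b-5p: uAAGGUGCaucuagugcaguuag
The seeds of the 2 families differ at 1 position (A4G, from miR-17-5p to miR-18a-5p, counted from 1 at the 5′ end). miR-18a-5p and miR-18b-5p differ only by A20U, and miR-20a-5p and miR-20b-5p by U1C and U10C. miR-17-5p differs from miR-106a-5p only by C1A, so the probes for miR-17-5p may also bind miR-106a-5p, which was not tested. Of 8 human mature miRNAs in the table with the seed AAAGUGC, miR-519d-3p (listed on the array as miR-519d) and miR-526b-3p are no members, and both were detected on 0 of 8 arrays. The seed AAGGUGC was held by 3, of which the non-member miR-4735-3p was also detected on 0 arrays.

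The members come from 3 loci. The miR-17-92 locus, chr13:91350618-91351382 on the plus strand within the long non-coding RNA gene MIR17HG, holds miR-17-5p (chr13:91350618-91350640), miR-18a-5p (chr13:91350756-91350778) and miR-20a-5p (chr13:91351072-91351094). The miR-106a-363 locus, chrX:134169382-134170266 on the minus strand within the long non-coding RNA gene MIR106AHG, holds miR-106a-5p (chrX:134170244-134170266), miR-18b-5p (chrX:134170084-134170106) and miR-20b-5p (chrX:134169850-134169872). The miR-106b-25 locus, chr7:100093571-100094063 on the minus strand within MCM7, holds miR-106b-5p (chr7:100094043-100094063) and miR-93-5p (chr7:100093815-100093837). All positions are those of RefSeq on GRCh38.p14.

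All 7 measured members were detected on all 8 arrays. Each was read from 30 spots, and 100% of them lay well above background except for miR-18b-5p, where the share was 63.3% to 66.7% because 1 of its 3 probes gave almost no signal. The scanner software detected 395 to 481 miRNAs per array, no spot was saturated, and the 75th percentile to which the arrays were scaled lay between 60.5 and 92.7 before scaling. Of the miRNAs listed as markers of other cells, those of blood were detected on 1 array at most (miR-142-3p) and on none (miR-223-3p and miR-451a), and those of muscle (miR-1 and miR-133a) and endothelium (miR-126-3p) on none. The epithelial miR-200b-3p was detected on 8 arrays and miR-205-5p on 6, whereas miR-200c-3p and miR-141-3p, which also mark epithelial cells, were detected on 0.

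Signals below are total signals of a miRNA scaled between arrays, in arbitrary units. They depend on the probe, so levels are compared between arrays and not between miRNAs. miR-17-5p, which gives its family its name, had signals of 221 and 293 in DMSO-treated cells, 183 and 256 in luteolin-treated cells, 172 and 181 in gefitinib-treated cells and 210 and 220 after co-administration. The gefitinib arrays were the lowest and did not overlap the DMSO arrays, while the luteolin arrays overlapped the DMSO arrays. miR-20a-5p, made from the same transcript, had 302 and 436 with DMSO, 247 and 400 with luteolin, 259 and 275 with gefitinib and 308 and 353 with both. Its DMSO and luteolin replicates lay farther apart than any group means. miR-18a-5p, the third member of the miR-17-92 locus, had 43.0 and 54.4 with DMSO, 30.0 and 39.4 with luteolin, 31.5 and 34.4 with gefitinib and 33.2 and 38.9 with both. All 6 arrays of drug-treated cells lay below both DMSO arrays. With no scaling this held for miR-18b-5p but not for miR-18a-5p (unscaled signals of 40.7 on gefitinib replicate 2 and 40.4 on DMSO replicate 1). Taken 1 drug group at a time, 17.7% (luteolin), 36.0% (gefitinib) and 33.3% (both) of all miRNAs tested lay so after scaling. No share is given for all 6 arrays together.

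In the miR-106a-363 locus, both measured members have near-identical counterparts in the miR-17-92 locus. miR-18b-5p had signals of 14.7 and 17.7 with DMSO, 10.2 and 13.4 with luteolin, 10.4 and 11.5 with gefitinib and 11.4 and 12.7 with both, so that again all arrays of drug-treated cells were below both DMSO arrays. miR-20b-5p had 90.5 and 133 with DMSO, 75.8 and 121 with luteolin, 77.6 and 83.7 with gefitinib and 89.2 and 107 with both. As for miR-20a-5p, the gefitinib arrays were the only ones that both lay below the DMSO arrays.

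The members of the miR-106b-25 locus varied least. miR-93-5p had 197 and 247 with DMSO, 192 and 232 with luteolin, 176 and 177 with gefitinib and 198 and 199 with both. The gefitinib arrays were below all others. miR-106b-5p had 228 and 287 with DMSO, 238 and 279 with luteolin, 216 and 240 with gefitinib and 232 and 249 with both, and each drug group overlapped the DMSO group. Across the 8 arrays the range of log2 signal was 0.41 for miR-106b-5p and 0.49 for miR-93-5p, against 0.77 to 0.86 for the other 5 members.

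**Figure D1:**
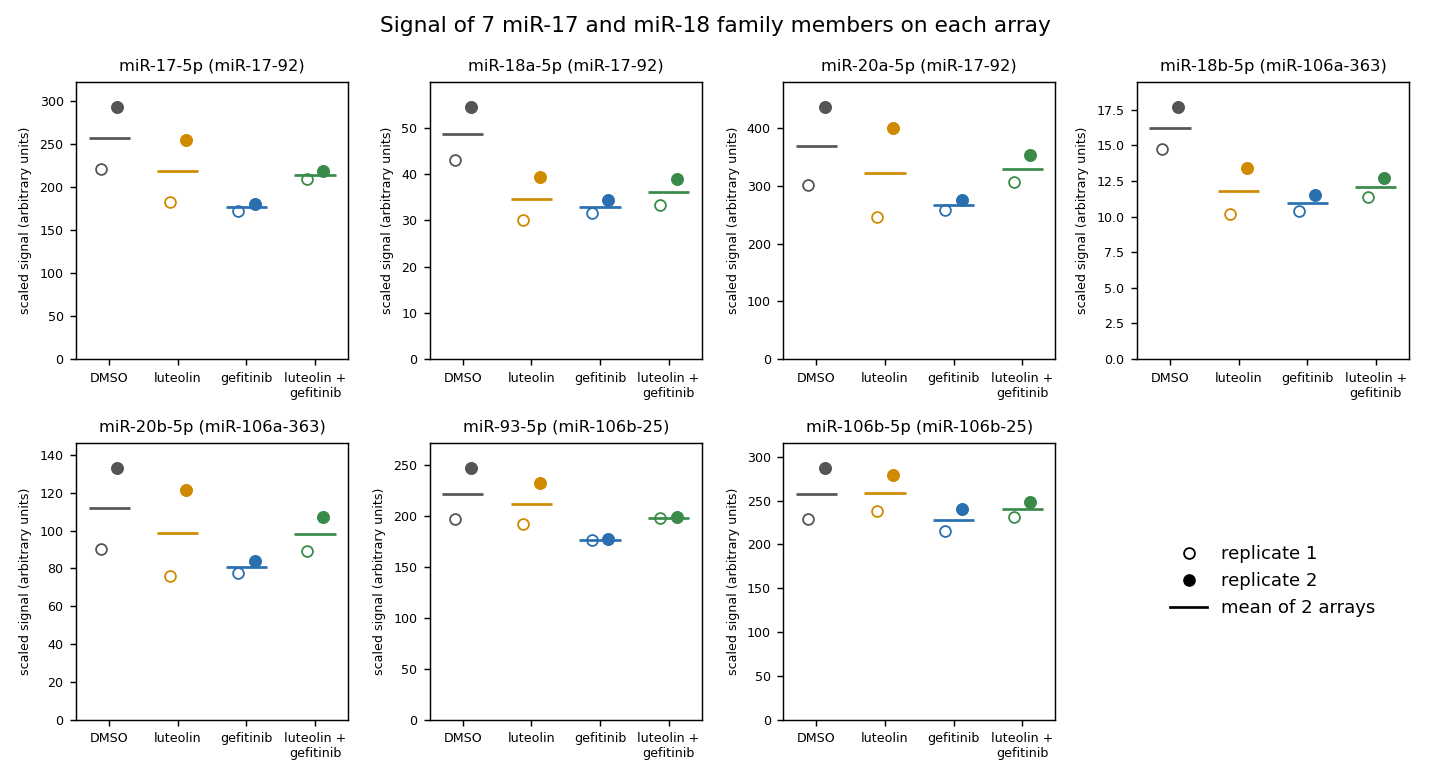
Scaled signal (vertical axis, arbitrary units, from 0) of the 7 measured members in the 4 groups, with open points for replicate 1, filled points for replicate 2 and a line for the mean of the 2 arrays. DMSO replicate 2 is the highest array in every panel, and all drug arrays lie below both DMSO arrays for miR-18a-5p and miR-18b-5p. Taken 1 drug group at a time, 17.7% (luteolin), 36.0% (gefitinib) and 33.3% (both) of all miRNAs tested lay so.

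After scaling, the highest array was DMSO replicate 2 for all 7 members (for 5 of 7 with no scaling). The share of all miRNAs with that highest array is not given. The lowest array was gefitinib replicate 1 (miR-17-5p, miR-93-5p and miR-106b-5p) or luteolin replicate 1 (the other 4). After scaling, replicate 2 was above replicate 1 for every member in every group, in 28 of 28 pairs of arrays. With no scaling this held in 21 of 28, since replicate 2 of the co-administration was then below replicate 1 for all 7 members. The gap of the scaled signals on the log2 scale was 0.26 to 0.55 with DMSO, 0.23 to 0.70 with luteolin, 0.0057 to 0.16 with gefitinib and 0.0076 to 0.26 with both drugs. Of the 365 miRNAs detected on all arrays, after scaling, 27.7% had replicate 2 above replicate 1 in all 4 groups. The replicate number was also the row of the array on the slide, and neither the part of that position in the gap nor that of the scaling was tested.

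Luteolin alone was compared with DMSO to ask which members respond to it. No member was called, which means a limma p-value under 0.05 after adjustment over the 480 miRNAs tested, while 2.08% of all miRNAs tested were called. None of the 7 had an unadjusted limma p under 0.05 either (8.54% of all miRNAs had), and the methods' t-test gave 0 members a p under 0.05 in any comparison with DMSO, beside 5.56% of the miRNAs for which it gave a value with luteolin, 24.7% with gefitinib and 18.3% with both. The largest differences were those of miR-18a-5p at -0.49 (log2 scale, SE 0.21, 95% interval -1.01 to 0.023, limma adjusted p = 0.566) and miR-18b-5p at -0.46 (SE 0.19, interval -0.94 to 0.018, adjusted p = 0.566). The miR-17 family lay closer to 0, at -0.23 for miR-17-5p, -0.21 for miR-20a-5p, -0.19 for miR-20b-5p, -0.063 for miR-93-5p and 0.010 for miR-106b-5p. Within the rows of the slide, the scaled signal was below DMSO in both rows for 6 of 7 members, beside 49.0% of all miRNAs. Leaving out 1 luteolin or DMSO array, which leaves unequal rows in the comparison, changed signs and sizes. Without luteolin replicate 1 the differences were 0.0064 for miR-17-5p, 0.14 for miR-20a-5p, 0.15 for miR-20b-5p and 0.074 for miR-93-5p, and without luteolin replicate 2 they were -0.47, -0.56, -0.53 and -0.20. Without DMSO replicate 2 they were -0.029, 0.059, 0.084 and 0.10. The miR-18 family stayed below 0, from -0.69 to -0.30 for miR-18a-5p and -0.66 to -0.26 for miR-18b-5p over the arrays left out. With the replicate number as a block, their unadjusted limma p was 0.0123 and 0.0153 (adjusted p = 0.229 and 0.245). Both luteolin arrays were below both DMSO arrays for 2 of 7 members, beside 17.7% of all miRNAs tested. The median difference was -0.21 over the members and -0.10 over all miRNAs tested.

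Gefitinib alone was compared with DMSO to ask the same of the kinase inhibitor. The log2 difference was below 0 for all 7 members, but none was called, beside 12.1% of all miRNAs tested. That share depended on single arrays: it was 3.75% without either DMSO array, 3.12% and 3.54% without gefitinib replicate 1 and 2, and 6.04% without either array of the co-administration, with 0 members called in each case. The miR-18 family had the lowest values. Only miR-18a-5p and miR-18b-5p had an unadjusted limma p under 0.05, which 23.8% of all miRNAs had. miR-18b-5p differed by -0.56 (SE 0.19, 95% interval -1.04 to -0.080, limma adjusted p = 0.147), 0.678 times its level in DMSO-treated cells, and miR-18a-5p by -0.56 (SE 0.21, interval -1.07 to -0.040, limma adjusted p = 0.177). miR-17-5p had -0.53 (SE 0.22, interval -1.08 to 0.023, adjusted p = 0.227), and miR-20a-5p and miR-20b-5p had -0.44 each (SE 0.29 and 0.30, adjusted p = 0.475 for both). In the miR-106b-25 locus, miR-93-5p had -0.32 (SE 0.17, adjusted p = 0.363) and miR-106b-5p had -0.17 (SE 0.18, interval -0.60 to 0.27, adjusted p = 0.647). Both gefitinib arrays were below both DMSO arrays for 6 of 7 members, all except miR-106b-5p, beside 36.0% of all miRNAs tested. All 7 differences stayed below 0 whichever array was left out, but without DMSO replicate 2 they were -0.32 for miR-17-5p, -0.18 for miR-20a-5p, -0.17 for miR-20b-5p, -0.16 for miR-93-5p, -0.0055 for miR-106b-5p, -0.39 for miR-18a-5p and -0.43 for miR-18b-5p. Without DMSO replicate 1 they ranged from -0.73 for miR-17-5p to -0.33 for miR-106b-5p, and without gefitinib replicate 1 miR-106b-5p had -0.092.

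The calls and sizes of these differences depended on the processing. After normexp background correction with an offset of 50 and quantile normalization, 2 members were called, beside 15.2% of all miRNAs, namely miR-17-5p (-0.51, limma adjusted p = 0.0363) and miR-93-5p (-0.31, adjusted p = 0.0378). With the main scaling, to the 75th percentile, the median over the members was -0.44 and that over all miRNAs tested was -0.10. With no scaling between arrays the medians were -0.078 and 0.26, and miR-93-5p and miR-106b-5p turned to 0.047 and 0.20, so the median of the members stayed below that of all miRNAs but not every member stayed below 0. Within the ranking of all 480 miRNAs, 14.2% had a lower difference than miR-18b-5p and 42.9% a lower one than miR-106b-5p. The probes of a member gave like values: of 15 probes that held at least 5% of a member's signal, all 15 were below 0 with gefitinib, from -0.63 to -0.15.

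The counts of members whose arrays did not overlap also depended on the scaling. With no scaling, both arrays lay below both DMSO arrays for 2 of 7 members with luteolin (9.38% of all miRNAs), 1 with gefitinib (10.8%) and 2 with both drugs (21.0%), and above both gefitinib arrays for 0 with both drugs (2.92%). The member that did so with gefitinib was miR-18b-5p. Arrays were also compared within each row of the slide, which holds 1 array of every group. The scaled signal was below DMSO in both rows for 6 of 7 members with luteolin (49.0% of all miRNAs), all except miR-106b-5p, for 7 with gefitinib (42.5%) and for 4 with both drugs (45.6%). It was above gefitinib in both rows for 7 with both drugs (27.1%). With no scaling these counts were 5 (26.5%), 3 (13.8%), 2 (35.4%) and 0 (3.96%).

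The co-administration was compared with DMSO in the same way. All 7 differences were below 0, though without DMSO replicate 2 those of miR-20a-5p (0.13), miR-20b-5p (0.11), miR-93-5p (0.011) and miR-106b-5p (0.071) were above it. None was called, beside 12.1% of all miRNAs (2.92% without DMSO replicate 2), and none had an unadjusted limma p under 0.05, which 25.8% of all miRNAs had. The miR-18 family again had the lowest values, with -0.43 for miR-18a-5p (SE 0.21, limma adjusted p = 0.274) and -0.42 for miR-18b-5p (SE 0.19, adjusted p = 0.244). The miR-17 family had differences from -0.24 for miR-17-5p (SE 0.22, interval -0.79 to 0.31, adjusted p = 0.550) to -0.094 for miR-106b-5p (SE 0.18, interval -0.53 to 0.34, adjusted p = 0.798). Both arrays of the co-administration were below both DMSO arrays for 3 of 7 members, which were miR-17-5p, miR-18a-5p and miR-18b-5p, beside 33.3% of all miRNAs tested. The median over the members, -0.17, was close to that over all miRNAs tested, -0.16.

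**Figure D2:**
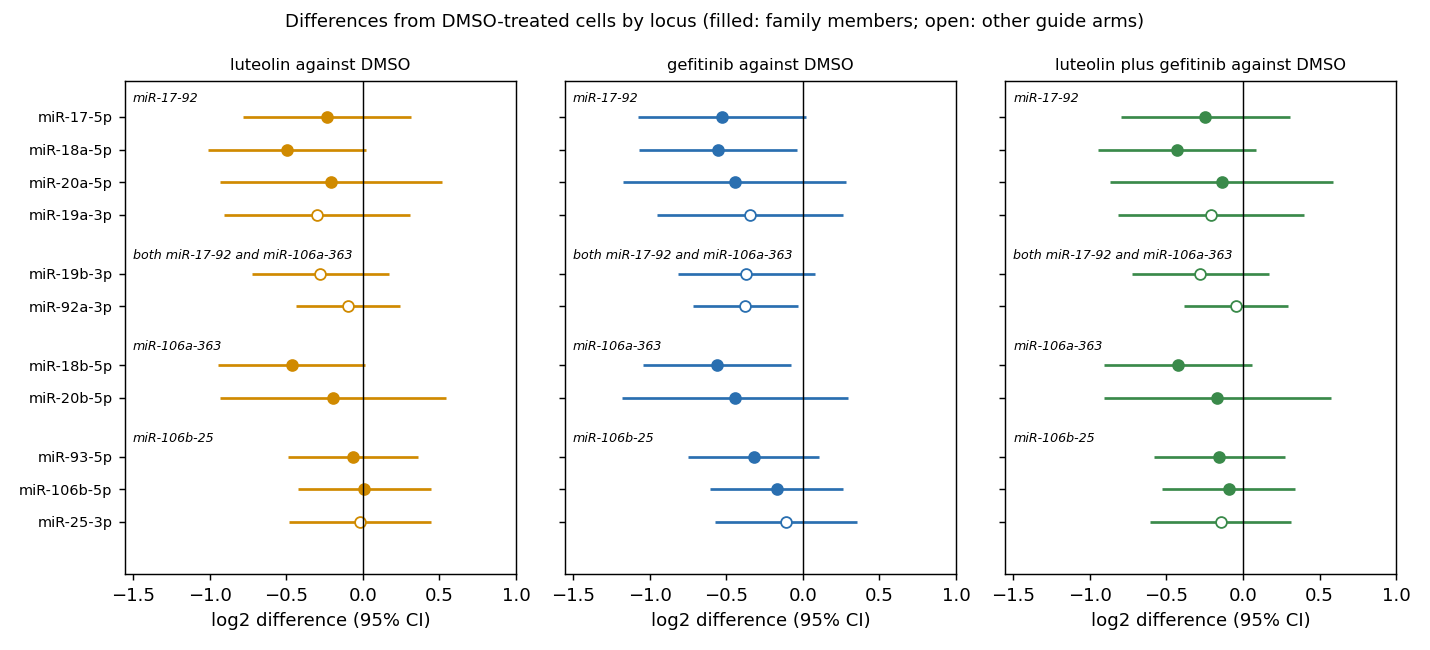
Difference of each drug group from DMSO on the log2 scale (horizontal axis; points with 95% intervals from limma) for the 7 members (filled) and the other 4 detected guide arms of the 3 loci (open), grouped by locus. Only the gefitinib intervals of miR-18a-5p, miR-18b-5p and miR-92a-3p leave out 0, and none of these passed adjustment over all miRNAs.

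The co-administration was compared with each drug alone to ask what the other drug added. Against luteolin, no member was called (1.88% of all miRNAs were) and none had an unadjusted limma p under 0.05 (15.4% of all had), with differences from -0.10 for miR-106b-5p to 0.069 for miR-20a-5p, each of which changed sign when a luteolin array or an array of the co-administration was left out. The arrays of both groups overlapped for all 7 members, whereas 17.9% of all miRNAs were below and 16.2% above on both arrays. Against gefitinib, no member was called by limma (4.58% of all miRNAs were) or had an unadjusted limma p under 0.05 (12.5% had), and all 7 differences were above 0, from 0.076 for miR-106b-5p to 0.31 for miR-20a-5p (limma adjusted p from 0.737 to 0.992). Without gefitinib replicate 1, that of miR-106b-5p was -0.0019. Both arrays of the co-administration lay above both gefitinib arrays for 4 of 7 members, beside 18.8% of all miRNAs. The methods' t-test called 1 of these, miR-93-5p (0.17 or 1.12-fold, adjusted p = 0.0405) on replicates of 176 and 177 against 198 and 199. It gave 2 members a p under 0.05 before adjustment. That test called 4.03% of the miRNAs for which it gave a value, and 18.3% were under 0.05 before adjustment. With no scaling all 7 differences from gefitinib turned below 0, to a median of -0.17, while the median of all miRNAs was -0.39.

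The interaction asked whether the co-administration differed from the sum of both single differences on the log2 scale. It was above 0 for all 7 members with all arrays, from 0.066 for miR-106b-5p to 0.62 for miR-18a-5p, so the co-administration was less far below DMSO than that sum. The exception was miR-106b-5p when DMSO replicate 2 (-0.098), luteolin replicate 1 (-0.049) or gefitinib replicate 1 (-0.012) was left out. None was called, beside 3.33% of all miRNAs tested, and the limma adjusted p lay between 0.562 and 0.986 with 0 members under 0.05 before adjustment, beside 10.2% of all miRNAs. The interaction of the 2 drugs was lowest in the miR-106b-25 locus (0.23 for miR-93-5p and 0.066 for miR-106b-5p). It was 0.62 for miR-18a-5p, 0.60 for miR-18b-5p, 0.52 for miR-17-5p, 0.51 for miR-20a-5p and 0.47 for miR-20b-5p (SE 0.27 to 0.42). This contrast was not tested. With no scaling, 3 of the 7 values were below 0.

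The loci were compared on each array by the mean log2 signal of the members of a locus minus that of another, a ratio that a scaling by 1 factor per array cannot move (quantile normalization can). Its absolute value depends on the probes and only its change between arrays is read. For miR-17-92 over miR-106b-25 the log2 ratio was -0.58 and -0.48 in DMSO-treated cells, -0.95 and -0.68 with luteolin, -0.80 and -0.78 with gefitinib and -0.73 and -0.62 with both. All 6 drug arrays were below both DMSO arrays, by a mean of -0.28 for luteolin, -0.26 for gefitinib and -0.15 for the co-administration. The luteolin value was -0.15 without luteolin replicate 1 and -0.42 without replicate 2 (ratio of miR-17-92 over miR-106b-25), and that of the co-administration was -0.093 without its replicate 1 and -0.098 without DMSO replicate 2. The signal of miR-17-92 members relative to miR-106b-25 members was 0.821, 0.832 and 0.903 times that in DMSO-treated cells. For miR-106a-363 over miR-106b-25 the log2 ratio was -2.54 and -2.46 with DMSO, -2.94 and -2.66 with luteolin, -2.78 and -2.73 with gefitinib and -2.75 and -2.59 with both, and all 6 drug arrays were again the lower ones. Luteolin differed from DMSO by -0.30 in the ratio of miR-106a-363 over miR-106b-25, and by -0.16 without its replicate 1. The co-administration differed by -0.17, and by -0.094 without its replicate 1. For miR-17-92 over miR-106a-363 it stayed between 1.95 and 2.02 on all 8 arrays.

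These ratios share the DMSO arrays and the miR-106b-25 members, and no test was made of them. Among the 21 pairs of members, 7 had ratios with all 6 drug arrays on 1 side of both DMSO arrays, beside 17.2% of all pairs of the 365 miRNAs detected on every array. Of these 7 pairs, 6 set miR-93-5p or miR-106b-5p against miR-17-5p, miR-18a-5p or miR-18b-5p, and the seventh set miR-93-5p against miR-106b-5p. The miR-18 family carried part of the shift. Without miR-18a-5p the ratio of miR-17-92 over miR-106b-25 differed from DMSO by -0.19 with luteolin, -0.24 with gefitinib and -0.068 with both, and only the gefitinib arrays lay wholly below the DMSO arrays. With miR-19a-3p and miR-25-3p added to their loci the differences were -0.29, -0.27 and -0.12, with all 6 drug arrays below both DMSO arrays. After normexp background correction with an offset of 50 and quantile normalization, miR-106a-363 over miR-106b-25 turned to 0.024 with gefitinib and 0.074 with both drugs.

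**Figure D3:**
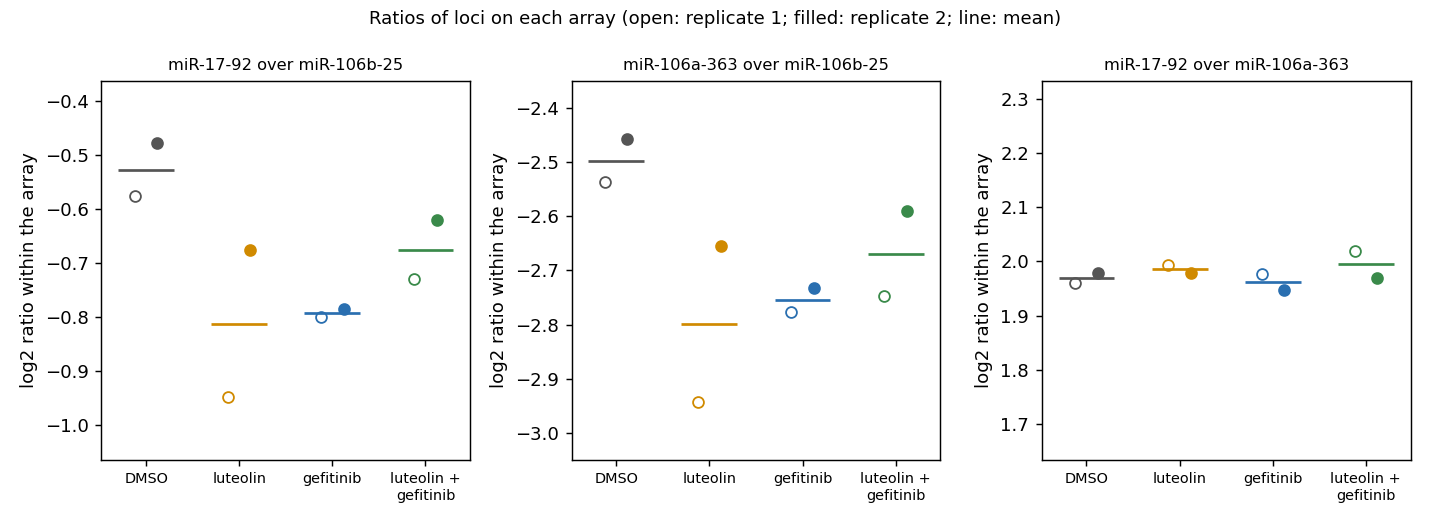
Log2 ratio of the mean signals of members of 2 loci within each array (vertical axis, the same span of 0.7 in each panel) in the 4 groups, with open points for replicate 1, filled points for replicate 2 and a line for the mean. The ratios over miR-106b-25 are lower on all 6 drug arrays than on both DMSO arrays, and the ratio of miR-17-92 over miR-106a-363 stays between 1.95 and 2.02.

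The members were also compared pair by pair, by the SD of their log2 ratio over the 8 arrays. The pairs that varied most alike were miR-20a-5p with miR-20b-5p (SD 0.026, 2 positions differ) and miR-18a-5p with miR-18b-5p (SD 0.031, 1 position differs). The next was miR-93-5p with miR-106b-5p (SD 0.075), which share a locus and differ at 5 of 21 positions. Few differences did not always go with a low SD: miR-17-5p differs from miR-20a-5p of its own locus and from miR-20b-5p of another at 2 positions each, with SDs of 0.089 and 0.093. The median of the 21 pairs was 0.158 and the highest value 0.207, for miR-106b-5p with miR-18a-5p. Sharing of the label between probes for near-identical members would also give like ratios, and its part here was not tested. Of the miR-106a-363 locus, the guide arm miR-363-3p and the opposite arms (miR-106a-3p, miR-18b-3p, miR-20b-3p, miR-19b-2-5p, miR-92a-2-5p and miR-363-5p) were each detected on 0 arrays. Most opposite arms of the other loci were not detected either (miR-18a-3p, miR-19a-5p, miR-92a-1-5p, miR-93-3p and miR-25-5p on 0 arrays, miR-106b-3p on 1).

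**Figure D4:**
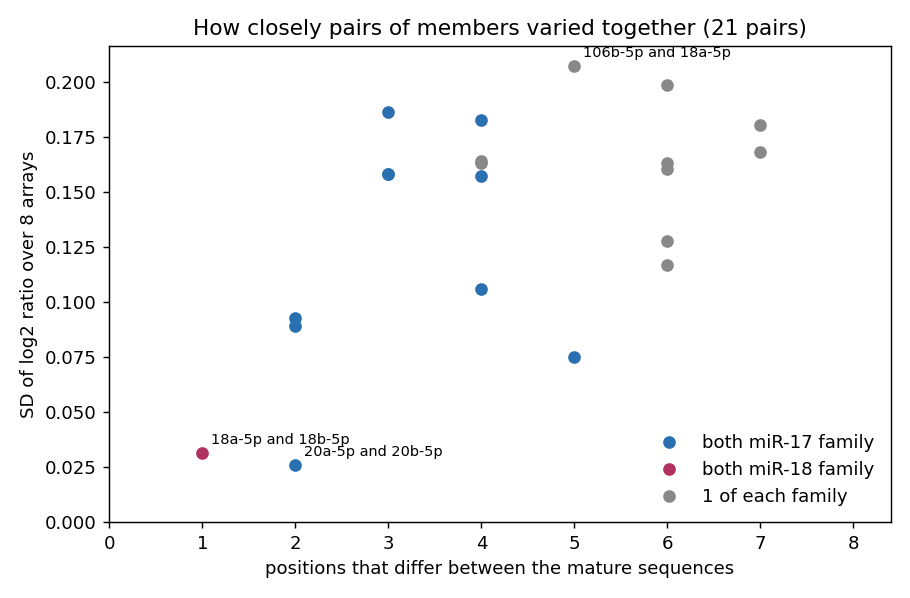
SD over the 8 arrays of the log2 ratio of 2 members (vertical axis, log2 units) against the number of positions at which their mature sequences differ (horizontal axis), for 21 pairs. The 2 lowest points are miR-20a-5p with miR-20b-5p (0.026) and miR-18a-5p with miR-18b-5p (0.031), and pairs that differ at 3 or more positions reach from 0.075 to 0.207.

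The other guide arms of the loci, which carry the seeds of miR-19 and miR-92, gave 0 calls among 4 detected in any of these comparisons. miR-19a-3p and miR-19b-3p had gefitinib differences of -0.34 (limma adjusted p = 0.507) and -0.37 (adjusted p = 0.305). miR-92a-3p had signals of 209 and 225 with DMSO, 160 and 175 with gefitinib and 198 and 224 with both drugs. Its gefitinib difference was -0.37 (SE 0.14, interval -0.71 to -0.034, adjusted p = 0.170). miR-25-3p, the third miRNA of the miR-106b-25 locus, had -0.016 with luteolin, -0.11 with gefitinib and -0.15 with both.

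The opposite arms, the strands of the hairpins that are mostly degraded, were mostly not detected. Of 15 on the array, 2 were detected on all 8 arrays, 2 on some and 11 on none. miR-17-3p, from the hairpin of miR-17-5p, had 23.3 and 27.1 with DMSO, 17.4 and 19.3 with luteolin, 15.9 and 18.2 with gefitinib and 17.9 and 18.5 with both. All 6 drug arrays were below both DMSO arrays, with differences of -0.45, -0.56 and -0.46 and limma adjusted p-values of 0.408, 0.0801 and 0.132. Each drug group alone lay so for 17.7%, 36.0% and 33.3% of all miRNAs tested. miR-20a-3p, from the hairpin of miR-20a-5p, had 3.38 and 4.65 with DMSO, 2.10 and 2.52 with luteolin, 2.44 and 2.42 with gefitinib and 2.12 and 1.89 with both. It fell by 0.99 after co-administration (SE 0.20, limma adjusted p = 0.0328), while luteolin gave -0.78 (adjusted p = 0.241) and gefitinib -0.71 (adjusted p = 0.0892). This call was lost under 10 of 15 other settings, among them no scaling (adjusted p = 0.138), and without DMSO replicate 2 (-0.76, adjusted p = 0.111), either gefitinib replicate (adjusted p = 0.0908) or either replicate of the co-administration (adjusted p = 0.0781 and 0.160). miR-19b-1-5p, which is made only from the miR-17-92 locus, was detected on both DMSO arrays (1.50 and 1.59), on 1 luteolin array (0.662), on 1 gefitinib array (0.567) and on none of the co-administration, where it was at least 2.24-fold lower by the lowest signal detected there. It was called in all 3 comparisons with DMSO (limma adjusted p = 0.00589, 0.00361 and 0.00234). Since it passed the filter only through the DMSO group, where it was high, no conclusion is drawn from these calls. Its signals on luteolin replicate 2 and on all arrays of gefitinib and of the co-administration were set to the floor, so that those 2 groups had no spread. Of the other settings, 8 of 14 lost the luteolin call, 4 of 15 the gefitinib call and 4 of 14 that of the co-administration. Those that lost all 3 were the 75th percentile over all miRNAs, normexp with quantile normalization, quantile normalization (-0.47, -0.98 and -0.53, adjusted p = 0.636, 0.0929 and 0.331) and 16 added to the signal in place of the floor (adjusted p = 0.451, 0.179 and 0.126). The luteolin call was also lost with the mean processed signal (adjusted p = 0.0998), the series table (0.102), the methods' t-test (0.451) and the fit of only the groups compared (0.169), and a floor of 1 gave a difference of -0.63 in each comparison.

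The miRNAs whose pattern over the 8 arrays was most like that of each family were ranked by the root mean square difference of centred log2 signals. For the miR-17 family, among 358 candidates, they were miR-130a-3p (0.060), miR-196b-5p (0.063), miR-29b-3p (0.064), miR-128 (0.070) and miR-342-3p (0.072), against a median of 0.314 over all candidates. For the miR-18 family they were miR-17-3p (0.078), miR-19b-3p (0.095), miR-19a-3p (0.103), miR-542-3p (0.110) and miR-424-5p (0.111), against a median of 0.330. Of the 3 nearest to the miR-18 family, miR-17-3p and miR-19a-3p are made from the miR-17-92 locus. miR-19b-3p is made from both that locus and the miR-106a-363 locus. None of those nearest to the miR-17 family is an arm of the 3 loci. The ranking did not use the locus. These likenesses are descriptions over 8 arrays that share 1 slide and 1 scaling.

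Because MYC and E2F are known to act on these clusters, the promoter windows of the 3 host genes, 250 bases before to 50 after each start in RefSeq, were searched on both strands for the E-box CACGTG and for the E2F words TTTCGCGC, TTTGGCGC, TTTCCCGC and TTTGCCGC. Among 35116 promoters, 7.26% held the E-box, 3.31% an E2F word and 0.308% both. The window of MCM7 at its most upstream start, chr7:100101348-100101647 on the minus strand, held the E-box and 2 E2F words, shown here in capitals and not overlapping, GCGGGAAA being TTTCCCGC read on the other strand.
MCM7: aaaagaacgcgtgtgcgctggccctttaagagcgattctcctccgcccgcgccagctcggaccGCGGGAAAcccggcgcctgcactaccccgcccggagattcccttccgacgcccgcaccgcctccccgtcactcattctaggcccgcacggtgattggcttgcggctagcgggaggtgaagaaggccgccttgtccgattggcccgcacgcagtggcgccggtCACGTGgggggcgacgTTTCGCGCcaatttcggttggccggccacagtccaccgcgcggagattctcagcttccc
The other 2 windows of MCM7, that of MIR17HG and that of MIR106AHG held none of these words. A match is a run of letters and not a bound site, no match says only that these letters are not in the window, and neither MYC nor E2F was measured on these arrays.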

How the data were processed

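Total RNA of PC-3 cells was hybridised to 8 one-colour Agilent human miRNA arrays, 2 per group, on 1 slide. The authors extracted each array with Agilent Feature Extraction (10.7.3.1), and the deposited signal intensity is linear and was not normalized between arrays. The total signal per miRNA was scaled to each array's 75th percentile over the 365 miRNAs detected on all arrays, floored at 0.609 (the median over arrays of the lowest detected signal) and converted to log2. The 480 miRNAs that some group detected on both its arrays were fitted as 4 groups in limma 3.58.1 (R 4.3.3; lmFit and eBayes, 4 residual degrees of freedom, prior 1.66). P-values were two-sided and adjusted by Benjamini-Hochberg over the 480, and a miRNA was called under 0.05. An exact permutation test of 2 arrays against 2 cannot go below 0.333 and was not used. The number of arrays limits the precision.

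The members, the loci, the other arms, the marker miRNAs and the tests were chosen with earlier results of these data known. Named miRNAs were the members, the other arms of their 3 loci, the markers, miRNAs of the same seed and the 5 nearest patterns per family. The arrays name another genome build (hg19) than RefSeq (GRCh38.p14), so all positions are those of RefSeq. Ratios were computed in Python 3.11.15 with pandas 2.3.3. Alternatives changed the scaling, spot summary (the deposited series table among them, which held the same intensity per spot), background correction, filter, floor and test, and left out each array in turn. For the methods' t-test the same values were used, and its p-values were adjusted by Benjamini-Hochberg. The study's cut on fold change was not applied. The unscaled counts of arrays that did not overlap and the comparisons within a row of the slide were added after seeing the data. The replicate numbers were not taken to pair the samples, except in an alternative fit with the replicate number as a block. The deviations of same-numbered arrays correlated unevenly between groups, from -0.135 (DMSO and gefitinib) to 0.908 (DMSO and luteolin). Scripts were tested on simulated data.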

Additional observations from a re-analysis of the deposited data

How the results depend on the processing

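The number of members called stayed at 0 in all 6 comparisons under every alternative that gave a value, with 2 exceptions. For gefitinib against DMSO it was 2 after normexp with an offset of 50 and quantile normalization (15.2% of all miRNAs were called), and for luteolin plus gefitinib against gefitinib it was 1 with the methods' t-test (4.03%). With the replicate number as a block it was 0 in each comparison. Under the block, the limma adjusted p of miR-18a-5p and miR-18b-5p was 0.0575 each with gefitinib and 0.229 and 0.245 with luteolin. The block changed no call of a member. Neither the t-test nor the fit of only the groups compared gives a value for the interaction. Leaving out 1 array in turn, the share of all miRNAs called ranged from 1.25% to 3.75% for luteolin, 3.12% to 14.6% for gefitinib and 2.92% to 15.2% for both against DMSO, from 0.625% to 3.75% for both against luteolin, from 2.29% to 6.88% against gefitinib and from 0.625% to 5.00% for the interaction. With both gefitinib arrays as 1 sample it was 2.92% for gefitinib against DMSO. Some differences changed sign, and the cause was not tested except where named. Limits are the 2 arrays per group, the single slide and the missing miR-106a-5p, and for dim opposite arms the floor.

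With no scaling, the values that changed sign were 0.090 for miR-93-5p with luteolin, and 0.047 for miR-93-5p and 0.20 for miR-106b-5p with gefitinib. For luteolin plus gefitinib against luteolin they were -0.056 for miR-20a-5p, -0.099 for miR-20b-5p, -0.060 for miR-18a-5p and -0.086 for miR-18b-5p. Against gefitinib they were -0.055 for miR-17-5p, -0.032 for miR-20a-5p, -0.061 for miR-20b-5p, -0.17 for miR-93-5p, -0.26 for miR-106b-5p, -0.21 for miR-18a-5p and -0.20 for miR-18b-5p. The interaction was -0.020 for miR-20b-5p, -0.26 for miR-93-5p and -0.43 for miR-106b-5p.

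The 75th percentile over all miRNAs of an array, most of them undetected, was 0.1 on 5 arrays and 0.714 to 0.786 on the other 3, and so scaled noise. It gave 0.035 for miR-93-5p with luteolin and 0.13 for miR-106b-5p with gefitinib. Luteolin plus gefitinib against DMSO then gave 1.20 for miR-17-5p, 1.31 for miR-20a-5p, 1.28 for miR-20b-5p, 1.29 for miR-93-5p, 1.35 for miR-106b-5p, 1.02 for miR-18a-5p and for miR-18b-5p, and 0.21 for miR-20a-3p. Against luteolin it gave 1.34 for miR-17-5p, 1.26 for miR-93-5p and 1.24 for miR-106b-5p.

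For luteolin plus gefitinib against luteolin, the mean processed signal gave -0.015 for miR-20a-5p, -0.051 for miR-20b-5p, -0.024 for miR-18a-5p and -0.057 for miR-18b-5p, and the series table -0.015, -0.051, -0.023 and -0.057. Quantile normalization gave -0.12 for miR-20a-5p there and an interaction of -0.020 for miR-106b-5p. Normexp with quantile normalization gave -0.033 for miR-20b-5p, -0.025 for miR-18a-5p and -0.0046 for miR-18b-5p there, and -0.0093 for miR-106b-5p with luteolin.

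The ratio of miR-17-92 over miR-106b-25 with luteolin moved to -0.17 after normexp and quantile normalization. That of miR-106a-363 over miR-106b-25 moved to -0.057 with luteolin, 0.024 with gefitinib and 0.074 with both under the same setting, and to -0.16 with luteolin and -0.091 with gefitinib when 16 was added to the signal. The cause was not tested. These alternatives were chosen for the ratios after seeing the data.

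Leaving out 1 array in turn changed some signs. With luteolin against DMSO the values ranged from -0.47 to 0.0064 for miR-17-5p, -0.56 to 0.14 for miR-20a-5p, -0.53 to 0.15 for miR-20b-5p, -0.23 to 0.10 for miR-93-5p and -0.15 to 0.17 for miR-106b-5p, and from -0.42 to -0.15 and -0.45 to -0.16 for the ratios of miR-17-92 and miR-106a-363 over miR-106b-25. With luteolin plus gefitinib against DMSO they ranged from -0.40 to 0.13 for miR-20a-5p, -0.44 to 0.11 for miR-20b-5p, -0.32 to 0.011 for miR-93-5p and -0.26 to 0.071 for miR-106b-5p. Against luteolin they ranged from -0.25 to 0.23 for miR-17-5p, -0.28 to 0.42 for miR-20a-5p, -0.31 to 0.37 for miR-20b-5p, -0.23 to 0.047 for miR-93-5p, -0.22 to 0.011 for miR-106b-5p, -0.13 to 0.26 for miR-18a-5p and -0.16 to 0.24 for miR-18b-5p. For miR-106b-5p they ranged from -0.0019 to 0.15 against gefitinib and from -0.10 to 0.23 for the interaction. In these fits a lone array is assumed to vary like the other groups.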
